A study of Mus musculus with 8 samples.

Results

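The genes described here are transcription factors that mark mesenchymal lineages and that fibroblasts of the embryo inherit from those lineages, outside the SNAI, ZEB and TWIST families. The list of 10 genes was fixed by symbol, as *Prrx1*, *Prrx2*, *Osr1*, *Osr2*, *Meox1*, *Meox2*, *Tcf21*, *Foxc2*, *Runx1* and *Runx2*, and 9 of them were found among the 18990 genes of the deposited table, while *Tcf21* was not analysed here. RNA-seq had been performed on primary MEFs (mouse embryonic fibroblasts) of wild-type BL6 mice, reprogrammed at passage 2, which were transduced with lentiviruses carrying rtTA and the doxycycline-inducible tet-STEMCCA cassette of OCT4, SOX2, KLF4 and MYC (OSKM). The cells then received pooled siRNAs at 40 nM against *Ncor1*, which encodes a nuclear corepressor, or against *Oct4*, and were induced with 2 μg per mL doxycycline in medium with LIF, 3 μM of the GSK3 inhibitor Chiron, 0.25 μM of the TGF-β receptor inhibitor Alk5i and 50 μg per mL ascorbic acid. The 4 groups are *siNcor1* at day 3, *siOct4* at day 3, *siNcor1* at day 6 and *siOct4* at day 6, with 2 replicates each, and every group carried the cassette and received every agent. Non-targeting siRNA samples were not analysed here, which leaves contrasts of one knockdown with the other and of day 6 with day 3. Bulk RNA was sequenced from mixed, virus-transduced cultures, in which fewer cells of a type and less RNA per cell cannot be told apart.

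PRRX1 and PRRX2 are paired-related homeodomain proteins of limb and craniofacial mesenchyme. OSR1 and OSR2 are zinc finger proteins related to odd-skipped, with roles in intermediate mesoderm, limb, palate and joint mesenchyme, and MEOX1 and MEOX2 are homeodomain proteins of the somites. FOXC2 is a forkhead protein of paraxial mesoderm and vessels, TCF21 is a basic helix-loop-helix protein of visceral and epicardial mesenchyme, and RUNX1 and RUNX2 bind DNA with their shared partner CBFβ, RUNX1 best known from blood formation and RUNX2 from osteoblasts. In the reprogramming of fibroblasts to pluripotent cells, the somatic programme that such factors belong to is shut down early, before the endogenous pluripotency genes are active.

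The libraries held between 7735742 and 16445192 reads on genes, and 3 reads stand for between 0.174 and 0.380 CPM. This unit scales each library by its effective size, which is the reads on genes adjusted by a normalization factor. The ratio of effective size to reads on genes was between 0.951 and 1.051. All 10 fibroblast markers examined, among them *Col1a1*, *Pdgfra* and *Thy1*, were detected in every library, with at least 109 reads. *Ncor1* had 7.08 and 7.20 log2-cpm in *siNcor1* at day 3 and 7.82 and 7.94 in libraries labelled *siOct4* (log2 fold change 0.74, standard error, SE, 0.12, limma adjusted p = 0.014), and at day 6 it had 7.26 and 7.28 against 7.33 and 7.13 (−0.042, SE 0.12, adjusted p = 0.81), where the groups overlapped. *Pou5f1*, the gene encoding OCT4, did not show a lower level in libraries labelled *siOct4* at day 3 (log2 fold change −0.076, SE 0.16, limma adjusted p = 0.94) and was higher there at day 6 (1.78, SE 0.16, limma adjusted p = 1.1e-04), and its value sums reads from the virus and the chromosomal copy. "The libraries labelled *siOct4*" therefore refers to the label throughout. Reads of the non-coding *Gm26917* made up from 15.5% to 16.6% of each day 3 library and from 20.3% to 29.1% of each day 6 library. For tests, limma was run on the deposited log2-cpm values over the 13866 genes whose mean reached 1 CPM, with Benjamini-Hochberg adjustment over all of them, and a gene is said to be higher or lower, or to have risen or fallen, where the adjusted p was under 0.05. Of the 9 factors, 8 were tested, and *Meox1* was under the filter with between 0 and 4 reads per library.

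The promoters of the PRRX and RUNX genes are shown because all 4 of these genes were lower at day 6 in the knockdown comparison that follows. RefSeq gave a window of 250 bases before to 50 bases after the start site (GRCm38.p6) for 5 of the 9 factors, *Prrx1*, *Prrx2*, *Meox2*, *Runx1* and *Runx2*, with 2 windows for *Runx1*. Capitals mark matches, on either strand, to TGTGGT (a RUNX core), ATTTGCAT (the octamer of OCT4), CACGTG (the E-box of MYC), TGANTCA (AP-1), TAATTA (a homeodomain core), GGAATG (TEAD) and GGGCGG (KLF and SP proteins). No 2 of the matches overlapped each other. The windows are chr1:163313601-163313900 on the reverse strand for *Prrx1*, chr2:30845117-30845416 on the forward strand for *Prrx2*, chr16:92826025-92826324 on the reverse strand for the distal start of *Runx1*, chr16:92697280-92697579 on the reverse strand for its proximal start, and chr17:44814578-44814877 on the reverse strand for *Runx2*.
Prrx1: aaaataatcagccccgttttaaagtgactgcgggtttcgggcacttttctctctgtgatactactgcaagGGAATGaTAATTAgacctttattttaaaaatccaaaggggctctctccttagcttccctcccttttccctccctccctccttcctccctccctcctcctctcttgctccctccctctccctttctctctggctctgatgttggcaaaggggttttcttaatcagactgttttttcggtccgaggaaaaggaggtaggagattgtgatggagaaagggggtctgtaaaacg
Prrx2: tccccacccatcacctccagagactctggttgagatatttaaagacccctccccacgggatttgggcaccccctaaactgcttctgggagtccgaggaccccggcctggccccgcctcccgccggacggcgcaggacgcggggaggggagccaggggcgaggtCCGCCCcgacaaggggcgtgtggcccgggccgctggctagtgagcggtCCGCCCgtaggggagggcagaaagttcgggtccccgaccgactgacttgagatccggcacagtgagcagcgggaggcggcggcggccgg
Runx1, distal start: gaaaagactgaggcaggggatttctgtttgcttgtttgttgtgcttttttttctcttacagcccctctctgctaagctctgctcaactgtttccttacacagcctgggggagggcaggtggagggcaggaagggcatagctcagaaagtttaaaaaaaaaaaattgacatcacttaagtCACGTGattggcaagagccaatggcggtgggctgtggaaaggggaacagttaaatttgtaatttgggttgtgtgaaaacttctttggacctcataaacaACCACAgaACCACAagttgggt
Runx1, proximal start: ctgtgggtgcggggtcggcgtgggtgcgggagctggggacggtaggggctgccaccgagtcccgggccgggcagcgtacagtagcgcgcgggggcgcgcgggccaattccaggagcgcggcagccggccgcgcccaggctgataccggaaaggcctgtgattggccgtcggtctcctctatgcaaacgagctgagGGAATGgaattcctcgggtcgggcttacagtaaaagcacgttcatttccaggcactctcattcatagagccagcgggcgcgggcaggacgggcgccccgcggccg
Runx2: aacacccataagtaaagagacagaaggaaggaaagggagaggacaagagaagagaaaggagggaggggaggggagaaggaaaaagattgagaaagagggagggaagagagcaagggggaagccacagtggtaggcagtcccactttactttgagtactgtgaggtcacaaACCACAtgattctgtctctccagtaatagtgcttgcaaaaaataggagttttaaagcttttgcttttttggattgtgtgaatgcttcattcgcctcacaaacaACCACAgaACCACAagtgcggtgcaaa

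The distal *Runx1* window and the *Runx2* window hold the same run of 14 letters after the start site, ACCACAGAACCACA. In it, 2 RUNX cores on the strand opposite to the one shown are separated by 2 bases. Counted from the start site, these cores begin at bases 29 and 37 of *Runx1* and at bases 24 and 32 of *Runx2*, and *Runx2* holds a further core at base −80. Of 32851 promoter windows of this length, 16.8% held at least 1 RUNX core, 1.81% held 2 or more, and 7 windows (0.0213%) held 2 cores on a strand with this spacing. The exact run was found in 4 windows, those of *Runx1*, *Runx2*, *Runx3* and *Gm16225*, a pattern that was looked for after the sequences had been seen. *Runx3* is the remaining member of the RUNX family. The *Meox2* window (chr12:37108290-37108589, forward strand) held 2 RUNX cores, at bases −208 and −80, and a KLF and SP core. The *Prrx1* window held a TEAD core at base −180 and a homeodomain core at base −173, motifs that 14.7% and 5.29% of all windows held, and the *Prrx2* window held 2 KLF and SP cores, a motif of 35.7% of all windows. The distal *Runx1* window also held an E-box at base −71 (7.15% of all windows) and the proximal window a TEAD core at base −55. No octamer (1.74% of all windows) and no AP-1 match (7.81%) was found in the 6 windows. GC content was 70.3% with 28 CpG in *Prrx2*, 69.0% with 35 CpG at the proximal start of *Runx1*, and 60.7% with 12 CpG in *Meox2*, while it was 47.7% with 6 CpG in *Prrx1*, 45.0% with 2 CpG at the distal start of *Runx1* and 45.3% with 2 CpG in *Runx2*, beside medians of 52.7% and 7 CpG over all windows. The reads were counted per gene, so that the use of either *Runx1* start was not measured here.

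Levels between genes were compared per length, as CPM per kb of annotated exon (RPKM). *Prrx2* and *Prrx1* stood highest of the 9 factors in every group. In *siNcor1* at day 3 they had 31.5 ± 6.23 and 28.3 ± 3.89 RPKM (SD, n = 2), and their replicates overlapped, so that no order between them could be given there. In each of the other 3 groups *Prrx2* lay above *Prrx1* without overlap, as at day 6 in libraries labelled *siOct4*, with 14.6 ± 0.584 against 11.7 ± 1.47 RPKM. This order depends on the exon lengths taken, 1961 bases for *Prrx2* and 11066 for *Prrx1*, and the isoforms used were not measured. In CPM *Prrx1* was the higher of the 2 in every group, with 313 against 61.8 in *siNcor1* at day 3. The RPKM values were above those of 92.6% and 93.6% of the genes with a length for *Prrx1* and *Prrx2* in *siNcor1* at day 3, and above 82.2% and 85.6% in libraries labelled *siOct4* at day 6. *Osr1*, *Runx1* and *Runx2* followed at day 3, between 4.46 and 6.51 RPKM on average in *siNcor1*, in this order and without overlap of neighbours. *Foxc2* had 2.69 ± 0.402, *Meox2* 1.56 ± 0.754 and *Osr2* 0.546 ± 0.048 RPKM in that group, and *Meox1* was at most 0.113 RPKM in any library. At day 6 in *siNcor1*, *Runx1*, *Foxc2*, *Osr1* and *Runx2* lay between 3.40 and 4.05 RPKM and each overlapped the next. *Osr2*, which had been below *Meox2* at day 3 in both knockdowns, was above it at day 6 in both, with 1.93 against 0.777 RPKM in *siNcor1* and 0.976 against 0.763 in libraries labelled *siOct4*.

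**Figure D1:**
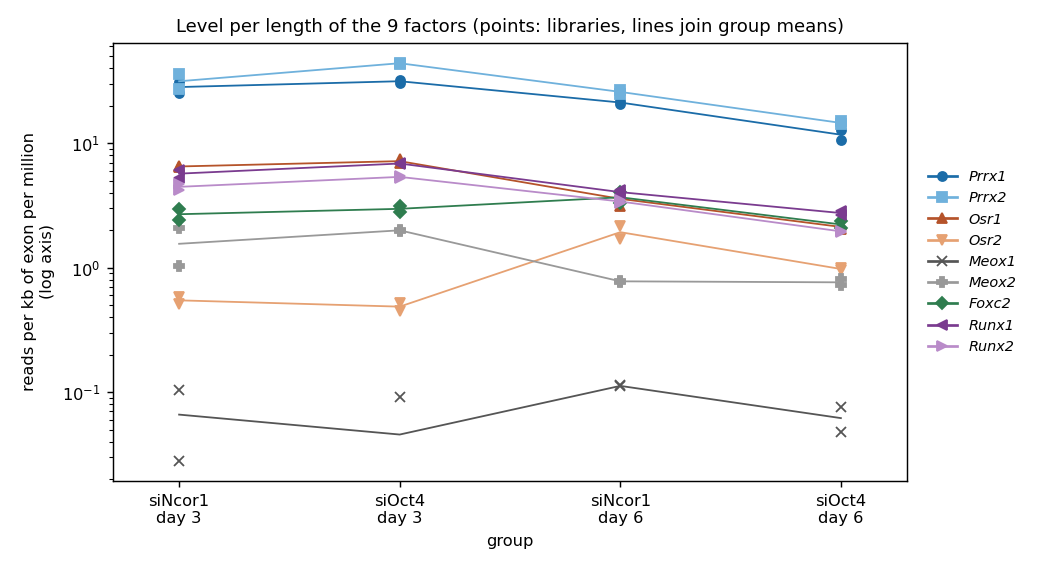
Level per length of the 9 factors, in RPKM on a log axis, for the 4 groups. Points are libraries and lines join group means, and a library of *Meox1* with 0 reads has no point. *Prrx1* and *Prrx2* stand highest in every group, and the lines of *Osr2* and *Meox2* cross between day 3 and day 6.

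To ask how the knockdowns differ in these factors, the libraries labelled *siOct4* were compared with *siNcor1* at each day. At day 6, 7 of the 8 tested factors were lower in libraries labelled *siOct4* and 0 were higher, where 18.6% of all tested genes were called lower and 30.7% were called in either direction. The 7 were *Prrx1*, *Prrx2*, *Osr1*, *Osr2*, *Foxc2*, *Runx1* and *Runx2*, between 32.0% and 48.1% lower, and *Meox2* was the exception. The median log2 fold change of the 8 factors was −0.76, beside −0.025 over all tested genes. In each of the 7, both libraries labelled *siOct4* lay below both *siNcor1* libraries, as for 34.8% of all tested genes.

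*Prrx1* lies on the reverse strand of chromosome 1 (163245119 to 163313710, mm10). At day 6 it had 7.85 and 7.91 log2-cpm in the *siNcor1* libraries and 6.89 and 7.14 in those labelled *siOct4*, from between 1118 and 2856 reads. The groups did not overlap, and the log2 fold change was −0.86 (SE 0.14, limma adjusted p = 0.0012). *Prrx2*, on chromosome 2 (30834972 to 30881251), had 5.73 and 5.60 log2-cpm in *siNcor1* and 4.88 and 4.80 in libraries labelled *siOct4*. The *Prrx2* change of −0.82 on the log2 scale (SE 0.14, adjusted p = 0.0019) was close in size to that of *Prrx1*, and its groups did not overlap. The antisense gene *Gm20471* overlaps 1134 exonic bases of *Prrx1* on the other strand, and whether reads were counted by strand is not given in the sources used here.

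The RUNX genes were lower as well. *Runx2*, on the reverse strand of chromosome 17 (44495987 to 44814797), had 4.94 and 4.89 log2-cpm in *siNcor1* at day 6 and 4.11 and 4.14 in libraries labelled *siOct4*, which is a log2 fold change of −0.79 (SE 0.13, adjusted p = 0.0014). *Runx1*, on the reverse strand of chromosome 16 (92601466 to 92826149), had 5.55 and 5.66 against 5.09 and 5.01 log2-cpm, which is a log2 fold change of −0.56 (SE 0.12, adjusted p = 0.0064). The replicates of both genes lay close together, and the groups did not overlap. Antisense transcripts overlap exons of both, and *Supt3* on the other strand spans 2284 exonic bases of *Runx2*.

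*Osr1*, on chromosome 12 (9570116 to 9581500), had 2.72 and 3.08 log2-cpm in *siNcor1* at day 6 and 2.23 and 2.13 in libraries labelled *siOct4*, from between 43 and 99 reads, which is a log2 fold change of −0.72 (SE 0.19, adjusted p = 0.014). *Osr2*, on chromosome 15 (35296098 to 35303305), had 3.00 and 2.65 against 1.90 and 1.85 log2-cpm, which is a log2 fold change of −0.95 (SE 0.26, adjusted p = 0.017). The *Osr2* values came from between 34 and 95 reads, and neither OSR gene overlapped between the groups. *Foxc2*, on chromosome 8 (121116171 to 121118895), had 3.49 and 3.19 against 2.72 and 2.54 log2-cpm, which is a log2 fold change of −0.71 (SE 0.20, adjusted p = 0.022). Another annotated gene model, *Gm20388*, covers all exons of *Foxc2* on the same strand. It is not among the genes of the deposited table, and how reads shared by both were assigned is not given. *Meox2*, on chromosome 12 (37108540 to 37179534), had 0.97 and 0.99 log2-cpm in *siNcor1* and 1.03 and 0.87 in libraries labelled *siOct4*, from between 18 and 22 reads. Its groups overlapped, and the log2 fold change was −0.027 with a 95% interval from −0.73 to 0.68. The gene model *Gm48617*, also absent from the deposited table, spans 805 exonic bases of *Meox2* on the same strand.

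Without *siNcor1* day 6 replicate 2, 3 of the 8 factors were lower at day 6, where 7.48% of all tested genes were called lower, and *Foxc2* (adjusted p = 0.059), *Osr1* (0.15), *Osr2* (0.058) and *Runx1* (0.077) did not. *Foxc2* (0.15) and *Osr2* (0.13) also missed the threshold without *siNcor1* day 6 replicate 1, and *Foxc2* (0.057) without *siOct4* day 6 replicate 2, while *Prrx1*, *Prrx2* and *Runx2* passed with any library left out, with limma adjusted p of at most 0.021. In a fit of the day 6 groups alone, *Osr1* missed it (0.063). Beside these differences, the summed level of the 10 fibroblast markers was between 6565 and 6828 CPM in *siNcor1* at day 6 and between 3640 and 3875 CPM in libraries labelled *siOct4*, 8 of the 10 being lower, and the 4 cassette genes were all higher in the latter, by between 1.59 and 1.78 on the log2 scale. The 8 epithelial markers summed to between 713 and 744 CPM in *siNcor1* and to between 311 and 344 CPM in libraries labelled *siOct4*, and the 8 pluripotency markers to between 101 and 109 and between 43.2 and 49.7 CPM. Their part in the differences of the factors was not tested.

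**Figure D2:**
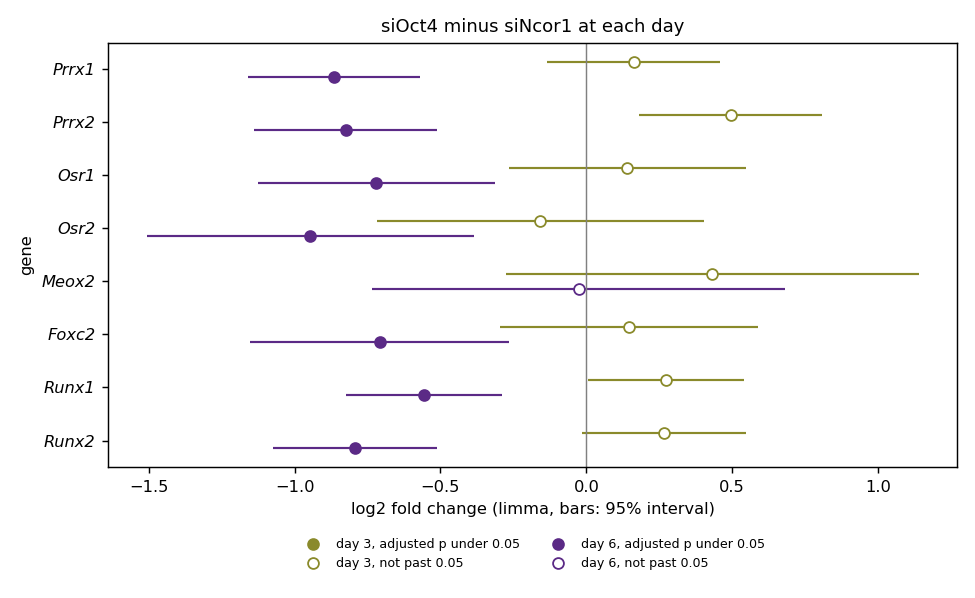
Log2 fold change of the libraries labelled *siOct4* against *siNcor1* at day 3 and at day 6 for the 8 tested factors, with 95% intervals from limma. At day 6 all points but that of *Meox2* are filled and lie between −0.95 and −0.56, while at day 3 all points are open and 7 of 8 lie above 0.

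At day 3, 0 of the 8 factors differed between the knockdowns (limma, adjusted p under 0.05), where 1.07% of all tested genes were called. That share was 0.0216% without either *siNcor1* day 3 library and up to 2.70% with another library left out, and the count of factors was 0 in each of these fits. With voom on the recovered reads the count was also 0. *Prrx2* and *Runx1* had an unadjusted p under 0.05, as had 1460 of the 13866 tested genes. Of the 8 log2 fold changes 7 were positive, with a median of 0.21 beside −0.021 over all tested genes. *Prrx2* had 6.14 and 5.74 log2-cpm in *siNcor1* and 6.42 and 6.45 in libraries labelled *siOct4*, which is a log2 fold change of 0.49 (SE 0.14, adjusted p = 0.16) with a 95% interval from 0.18 to 0.81. For *Prrx2*, *Osr1*, *Runx1* and *Runx2*, both libraries labelled *siOct4* lay above both *siNcor1* libraries, as for 20.7% of all tested genes. *Runx1* and *Runx2* had log2 fold changes of 0.27 and 0.27, and *Prrx1* had 8.42 and 8.14 against 8.40 and 8.49 log2-cpm, which overlapped. The *Meox2* libraries of *siNcor1* stood apart from each other at this day, with 1.35 and 2.34 log2-cpm, beside 2.29 and 2.27 in libraries labelled *siOct4*. The fibroblast markers summed to between 9022 and 9089 CPM in *siNcor1* and between 11683 and 13338 CPM in libraries labelled *siOct4* at day 3, with 0 of the 10 called. The epithelial markers summed to between 91.3 and 93.3 against between 38.4 and 47.0 CPM, 5 of the 8 being lower, and the pluripotency markers to between 7.61 and 7.77 against between 1.42 and 3.67 CPM. In every day 3 library 6 or 7 of the 8 pluripotency markers had 3 reads or fewer, and 1 of the 6 tested was called lower.

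The levels of the 9 factors in all libraries are plotted next, with each gene on its own axis.

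**Figure D3:**
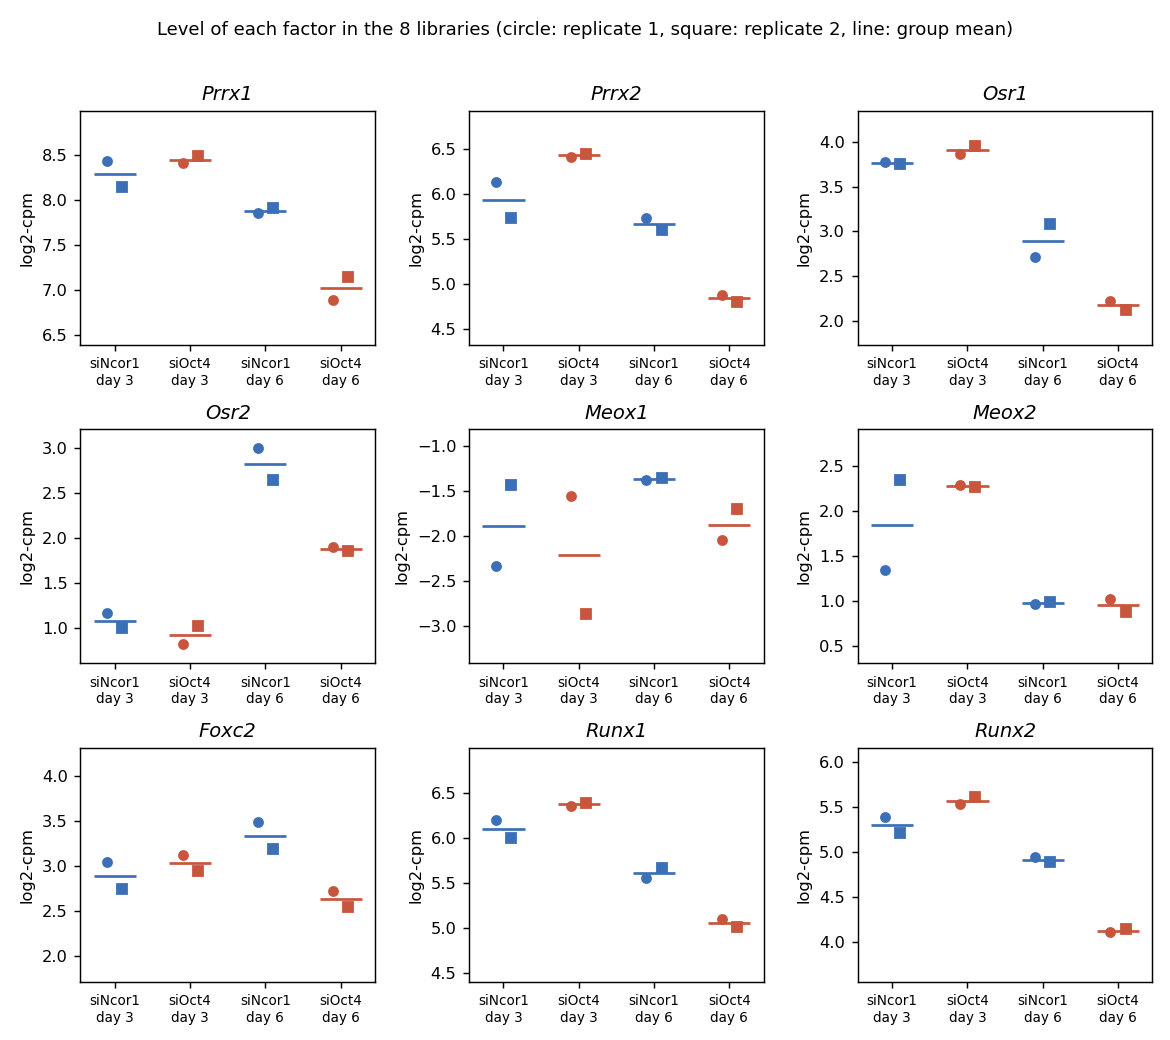
Log2-cpm of the 9 factors in the 8 libraries, with circles for replicate 1, squares for replicate 2 and lines for group means, and a separate y axis for each gene. For *Prrx1*, *Prrx2*, *Osr1*, *Runx1* and *Runx2* both libraries labelled *siOct4* at day 6 are the lowest of the 8, *Osr2* is highest in *siNcor1* at day 6, and *Meox1* lies at or below −1.36 throughout.

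To follow the factors through reprogramming, day 6 was compared with day 3 within each knockdown. These comparisons use the same 8 libraries as those between the knockdowns and are not independent of them. In the libraries labelled *siOct4*, 6 of the 8 factors fell and *Osr2* rose, where 30.5% of all tested genes were called lower and 22.2% higher at day 6. *Prrx1*, *Prrx2*, *Osr1*, *Meox2*, *Runx1* and *Runx2* fell by between 1.32 and 1.72 on the log2 scale, and the median of the 8 was −1.38, beside −0.079 over all tested genes. *Osr1* fell furthest, from 3.86 and 3.95 log2-cpm at day 3 to 2.23 and 2.13 at day 6 (log2 fold change −1.72, SE 0.19, limma adjusted p = 1.9e-05). *Prrx2* changed from 6.42 and 6.45 to 4.88 and 4.80 log2-cpm (−1.59, SE 0.14, adjusted p = 5.5e-06) and *Prrx1* from 8.40 and 8.49 to 6.89 and 7.14 (−1.43, SE 0.14, adjusted p = 7.4e-06). The RUNX genes fell by like amounts, with log2 fold changes of −1.45 for *Runx2* and −1.32 for *Runx1*, and for all 6 genes both day 6 libraries lay below both day 3 libraries, as for 42.1% of all tested genes. *Foxc2* had 3.13 and 2.95 log2-cpm at day 3 and 2.72 and 2.54 at day 6, which is a log2 fold change of −0.41 (SE 0.20, adjusted p = 0.11), which passed after quantile normalization (adjusted p = 0.045). The same 7 factors passed with any of the 8 libraries left out, with adjusted p of at most 0.047. The fibroblast markers summed to between 11683 and 13338 CPM at day 3 and between 3640 and 3875 CPM at day 6, with 6 of the 10 lower and 2 higher. The epithelial markers went from between 38.4 and 47.0 to between 311 and 344 CPM, the pluripotency markers from between 1.42 and 3.67 to between 43.2 and 49.7 CPM, and the 4 cassette genes were all higher at day 6, by log2 fold changes between 0.96 and 1.63. Their part in the changes of the factors was not tested.

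In *siNcor1*, 5 of the 8 factors passed the test. *Osr1*, *Prrx1*, *Runx1* and *Runx2* fell and *Osr2* rose, where 20.9% of all tested genes were called lower and 13.8% higher at day 6, and the median of the 8 factors was −0.40, beside −0.068 over all tested genes. *Osr1* changed from 3.77 and 3.75 log2-cpm at day 3 to 2.72 and 3.08 at day 6 (−0.86, SE 0.19, limma adjusted p = 0.0043). *Runx1* changed from 6.20 and 6.00 to 5.55 and 5.66 log2-cpm (−0.49, SE 0.12, adjusted p = 0.0095), *Prrx1* by −0.41 (SE 0.14, adjusted p = 0.036) and *Runx2* by −0.39 (SE 0.13, adjusted p = 0.036). *Prrx2* had a log2 fold change of −0.27 (SE 0.14, adjusted p = 0.17) and *Meox2* of −0.87 (SE 0.32, adjusted p = 0.057), from day 3 libraries that stood apart. The *Meox2* difference passed with the replicate number as a blocking term (adjusted p = 0.049). *Foxc2* had 3.04 and 2.74 log2-cpm at day 3 and 3.49 and 3.19 at day 6, which is a log2 fold change of 0.45 (SE 0.20, adjusted p = 0.11).

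The calls in *siNcor1* rested on single libraries to a larger extent. In the full fit 34.8% of all tested genes were called in either direction. This share was lower as well with any *siNcor1* library left out, or either day 3 library labelled *siOct4*. Without *siNcor1* day 6 replicate 1 only *Osr2* was called. The factors called were 3 without *siNcor1* day 3 replicate 1, without *siNcor1* day 6 replicate 2 or without either day 3 library labelled *siOct4*, and in these 4 cases *Prrx1* and *Runx2* no longer passed. *Runx2* was also lost without *siNcor1* day 3 replicate 2 (adjusted p = 0.065), and *Meox2* passed without either day 6 library labelled *siOct4* (0.041 and 0.040), without *siNcor1* day 3 replicate 1 (0.016) and in a fit of the *siNcor1* groups alone (0.042). The *Meox2* log2 fold change was −1.36 without *siNcor1* day 3 replicate 1 and −0.37 without *siNcor1* day 3 replicate 2. *Prrx1* and *Runx2* also missed the threshold with *Gm26917* left out of the read totals (adjusted p = 0.067 and 0.081), without the variance trend (0.088 and 0.056) and after quantile normalization (0.18 and 0.10), and *Runx2* after median centring (0.060). *Runx1* did so without *siNcor1* day 3 replicate 1 (0.083) and after quantile normalization (0.071), where *Meox2* passed (0.024). The fibroblast markers summed to between 9022 and 9089 CPM at day 3 and between 6565 and 6828 CPM at day 6 in *siNcor1*, with 5 of the 10 higher and 3 lower. The epithelial markers went from between 91.3 and 93.3 to between 713 and 744 CPM and the pluripotency markers from between 7.61 and 7.77 to between 101 and 109 CPM, and 2 of the 4 cassette genes were lower at day 6. The part of these genes in the changes of the factors was not tested.

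*Osr2* was the only factor that rose in either knockdown. In *siNcor1* it had 1.16 and 0.99 log2-cpm at day 3, from 34 and 32 reads, and 3.00 and 2.65 at day 6, from 95 and 73 reads, and the log2 fold change was 1.74 (SE 0.26, limma adjusted p = 4.9e-04), or 3.35-fold. In the libraries labelled *siOct4* it rose from 0.82 and 1.02 to 1.90 and 1.85 log2-cpm (0.96, SE 0.26, adjusted p = 0.0081), or 1.94-fold. Within the OSR family, *Osr1* thus fell and *Osr2* rose in each knockdown, and the days did not overlap for either gene, as for 41.7% (lower at day 6) and 31.4% (higher) of all tested genes in *siNcor1* and 42.1% and 32.7% in libraries labelled *siOct4*. Both calls of *Osr2* were kept with any library left out, with adjusted p of at most 0.047.

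**Figure D4:**
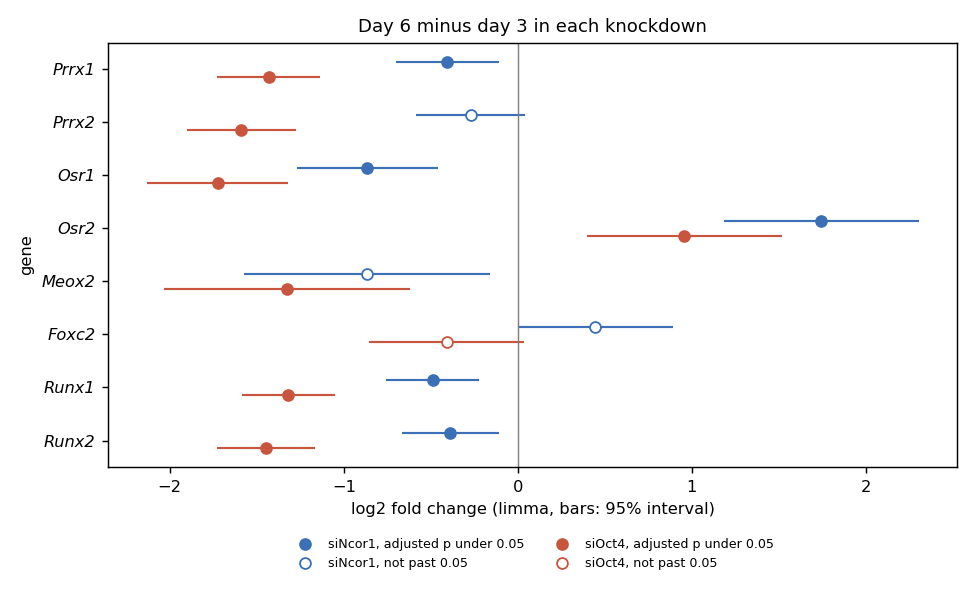
Log2 fold change from day 3 to day 6 of the 8 tested factors in *siNcor1* and in libraries labelled *siOct4*, with 95% intervals from limma. *Osr2* alone lies above 0 in both knockdowns, and for every factor the value of *siOct4* lies to the left of that of *siNcor1*.

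Whether the knockdown difference changed between the days was tested by the interaction term of the same model. It was negative for all 8 factors and passed the threshold for 5 of them, *Prrx1*, *Prrx2*, *Osr1*, *Runx1* and *Runx2*, where 12.9% of all tested genes were called in this direction and 20.7% in either. The median of the 8 was −0.86, beside 0.012 over all tested genes. *Prrx2* had the largest value, −1.32 (SE 0.20, limma adjusted p = 0.0016), with the log2 fold changes of 0.49 at day 3 and −0.82 at day 6 given above. *Runx2* had −1.06 (SE 0.18, adjusted p = 0.0026), *Prrx1* −1.03 (SE 0.19, adjusted p = 0.0040) and *Runx1* −0.83 (SE 0.17, adjusted p = 0.0075). *Osr1* had −0.86 (SE 0.26, adjusted p = 0.038), which missed the threshold with 5 of the 8 libraries left out in turn (each of the 4 day 3 libraries and *siNcor1* day 6 replicate 2), with adjusted p of up to 0.17, and also after quantile normalization (0.057), without the filter on low values (0.054) and without *Gm26917* in the totals (0.051). *Foxc2* had −0.85 (SE 0.29, adjusted p = 0.054), *Osr2* −0.79 (SE 0.36, adjusted p = 0.14) and *Meox2* −0.46 (SE 0.46, adjusted p = 0.51). *Foxc2* passed with the replicate number as a blocking term (adjusted p = 0.032), without *siOct4* day 6 replicate 1 (0.039) and without normalization factors (0.037). The fibroblast markers had the same sign in this test, with all 10 values negative, 8 of them called and a median of −0.998. The 4 cassette genes were all called with positive values, with a median of 1.69, where 1077 of the 13866 tested genes were called in this direction. Of the 8 epithelial markers 4 were called with positive and 3 with negative values. Of the 6 tested pluripotency markers 1 was called, with a negative value. Their part in the values of the factors was not tested.

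*Meox1*, on chromosome 11 (101877510 to 101894374), was at or near the limit of detection. It had 1 and 4 reads in *siNcor1* at day 3, 3 and 0 in libraries labelled *siOct4* at day 3, 3 and 3 in *siNcor1* at day 6 and 1 and 2 in libraries labelled *siOct4* at day 6. No difference in *Meox1* was detectable at this depth, and no fold is given.

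Other transcription factors of developing mesenchyme were examined for comparison, from a list of 58 genes of which 51 were tested. At day 6, 16 of the 51 were lower and 6 higher in libraries labelled *siOct4*, beside 18.6% and 12.1% of all tested genes, and their median log2 fold change was −0.38. Among those lower were *Ebf2*, a factor of adipose and bone precursors (−1.28, SE 0.33, limma adjusted p = 0.013), and *Msx2*, a homeobox gene of skull and limb mesenchyme (−1.14, SE 0.21, adjusted p = 0.0027). *Ebf2* had only 20 and 24 reads in *siNcor1* at day 6 and 5 and 10 in libraries labelled *siOct4*. *Barx1*, a homeobox gene of stomach and tooth mesenchyme, and *Mkx*, a homeobox gene of tendon, were higher by log2 fold changes of 1.89 (SE 0.30, adjusted p = 0.0013) and 1.16 (SE 0.23, adjusted p = 0.0038). *Barx1* had 1.78 and 1.41 log2-cpm in *siNcor1* and 3.41 and 3.58 in libraries labelled *siOct4* at day 6, after 1.72 and 2.20 against 0.29 and −0.38 at day 3, where it was lower in the latter (−2.01, SE 0.30, adjusted p = 0.0095). At day 3 *Barx1* had 51 and 77 reads in *siNcor1* and 16 and 5 in libraries labelled *siOct4*. Its interaction was 3.90 (SE 0.43, adjusted p = 6.1e-04), opposite in sign to the values of the 8 factors. From day 3 to day 6, 26 of the 51 fell and 5 rose in libraries labelled *siOct4*, and 14 fell and 4 rose in *siNcor1*, beside 30.5% and 22.2% of all tested genes in the former and 20.9% and 13.8% in the latter.

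Of the partners and cofactors of the RUNX proteins, with *Runx3*, 9 of 10 were tested, and 3 were lower and 0 higher in libraries labelled *siOct4* at day 6, where 18.6% of all tested genes were lower and 12.1% higher. *Runx1t1*, a corepressor of the ETO family, had 3.50 and 3.55 log2-cpm in *siNcor1* and 2.05 and 2.24 in libraries labelled *siOct4* (−1.38, SE 0.17, limma adjusted p = 4.6e-04). The related *Cbfa2t2* (−0.42, adjusted p = 0.023) and the Groucho-type corepressor *Tle2* (−0.71, adjusted p = 0.036) were the others. The remaining 6 were not called, among them *Cbfb*, which encodes the shared partner CBFβ (0.054, SE 0.13, adjusted p = 0.78). Known RUNX2 targets of osteoblasts were tested for 7 of 12 genes, of which 4 were lower and 1 higher at day 6, with a median of −0.82. *Sp7*, the osteoblast factor Osterix, had 1.85 and 1.84 log2-cpm in *siNcor1* and 1.03 and 0.87 in libraries labelled *siOct4* (−0.89, SE 0.26, adjusted p = 0.025). *Mmp13*, a collagenase, was lower by a log2 fold change of −1.35 (adjusted p = 0.0055), *Tnfrsf11b*, which encodes osteoprotegerin, by −1.11 (adjusted p = 0.031) and *Spp1*, which encodes osteopontin, by −0.82 (adjusted p = 0.013). *Tnfrsf11b* had only 12 and 16 reads in *siNcor1* at day 6 and 4 and 6 in libraries labelled *siOct4*. *Spp1* rose from day 3 to day 6, as opposed to *Runx2*, with log2 fold changes of 3.15 in *siNcor1* (adjusted p = 3.7e-06) and 2.19 where the label was *siOct4* (adjusted p = 8.1e-06). Of 11 genes known as targets of the other factors 6 were tested, and 3 were lower at day 6. *Tnc*, a matrix glycoprotein downstream of PRRX1, was higher in libraries labelled *siOct4* at day 3 (0.77, SE 0.16, adjusted p = 0.046) and lower at day 6 (−1.23, SE 0.16, adjusted p = 4.9e-04). *Angpt2* (−0.58, adjusted p = 0.0098) and *Cdkn1a* (−0.49, adjusted p = 0.010) were the other 2. At day 3, 0 of the RUNX partners and 0 of the RUNX2 targets differed by limma (0 and 3 at an unadjusted p under 0.05), 2 of the other mesenchyme factors were lower and *Tnc* alone of the targets of other factors was higher. The interaction passed in the negative direction, as for 12.9% of all tested genes, for 1 of the 9 partners, 5 of the 7 RUNX2 targets, 3 of the 6 other targets and 10 of the 51 other mesenchyme factors. In the positive direction it passed for 6 of the 51 other mesenchyme factors, as for 1077 of the 13866 tested genes.

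**Figure D5:**
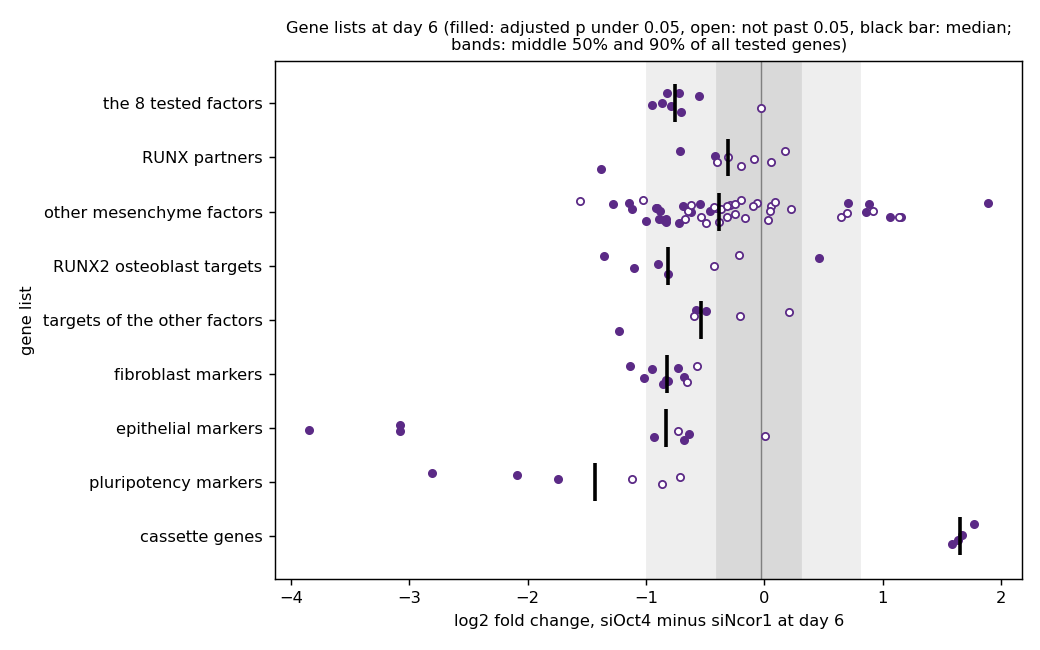
Log2 fold change of the libraries labelled *siOct4* against *siNcor1* at day 6 for the tested genes of each list, filled where the adjusted p was under 0.05, with the median as a black bar and the middle 50% and 90% of all tested genes as bands. The median of the 8 factors (−0.76) lies below the middle 50%, that of the other mesenchyme factors (−0.38) within it, and the cassette genes lie between 1.59 and 1.78.

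RUNX1 and MEOX proteins are also known from other cell types, whose markers were therefore examined. Of the endothelial markers *Pecam1*, *Cdh5*, *Kdr*, *Emcn* and *Esam* had at most 25 reads in any library, while *Tek* had at least 151. The list summed to between 41.0 and 44.5 CPM at day 3 and between 17.3 and 21.9 CPM at day 6. *Tek*, the only endothelial marker tested, fell between the days in *siNcor1* (log2 fold change −1.22, SE 0.15, limma adjusted p = 1.3e-04) and in libraries labelled *siOct4* (−1.31, SE 0.15, adjusted p = 2.3e-05). Of the blood cell markers *Gata1*, *Tyrobp* and *Adgre1* had at most 6 reads in any library, while *Laptm5*, *Cd68* and *Itga2b* had at least 22 in every library. The list summed to between 10.7 and 17.9 CPM at day 3 and between 16.1 and 26.5 CPM at day 6. *Cd68* rose between the days in both knockdowns and *Laptm5* in libraries labelled *siOct4*, while *Itga2b* was not called. Of the 8 genes listed for each type, 6 endothelial, 6 blood cell and 4 skeletal muscle markers were found, the last being *Des*, *Acta1*, *Chrna1* and *Myh3*. The skeletal muscle markers summed to between 45.2 and 121 CPM at day 3 and between 19.2 and 30.4 CPM at day 6, and *Des* had at least 164 reads in every library. *Des* and *Acta1* fell between the days in both knockdowns, and *Myh3* was not called. *Chrna1*, with between 2 and 30 reads, rose in libraries labelled *siOct4* (log2 fold change 2.23, SE 0.49, limma adjusted p = 0.0025). The part of all these markers in the levels of *Runx1* and *Meox2* was not tested.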

How the data were processed

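RNA from 8 libraries, 2 replicates in each of 4 groups given by the sample titles, was prepared from 200 ng total RNA with ribosomal RNA depletion and sequenced as paired ends. According to the methods and the submitters' processing notes, alignment to mm10 used STAR 2.5.2b. By the same sources, the authors deposited log2 values (log2-cpm) made with edgeR 3.20.9. In these values, counts are scaled to the effective library size described above. How reads were assigned to genes is not given in the sources used here. Subtracting the value of 0 reads (−2.87 log2-cpm) on the linear scale gave whole reads for 100% of values (to within 0.1 read), and these were used for depth, CPM and voom. Differences between replicates exceeded sampling noise in each group (chi-square over its degrees of freedom from 8.44 to 18.7), intervals from reads would cover counting error only, and p-values measure the spread between these libraries, which the study describes as biological replicates and the labels by number alone.

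The 13866 of 18990 genes whose mean reached 1 CPM were tested with limma 3.58.1 in R 4.3.3, with the intensity trend of eBayes switched on, on the deposited log2 values, with the 4 groups fitted together and Benjamini-Hochberg adjustment over all tested genes at 0.05. The study's own tests against controls were not repeated. Lists were described by counts and medians. The fit was tested on simulated data of known fold changes. Coordinates and exon lengths came from GENCODE M21 (18969 genes matched by identifier), promoters from RefSeq GRCm38.p6, and figures were drawn with matplotlib 3.10.9.

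The factors, the other lists and the tests were chosen with earlier results of these data known. All factors are named, and of the other lists the cassette genes and up to 4 genes with the largest change among those called at day 6, besides *Ncor1*, *Cbfb*, *Runx3*, *Gm16225*, *Gm26917*, overlapping genes and markers, which were named after their values or sequences had been seen. Alternatives were a fit without the trend, other scalings, filters and pseudocounts, voom, the replicate number as a block, only the groups compared, and each library left out. Read totals without *Gm26917* were added after the data had been seen.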

Additional observations from a re-analysis of the deposited data

Results flagged for a closer look

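The difference between the libraries labelled *siOct4* and *siNcor1* changed from day 3 to day 6 by the limma interaction for 5 of the 8 tested factors. The change on the log2 scale was −1.03 for *Prrx1*, −1.32 for *Prrx2*, −0.86 for *Osr1*, −0.83 for *Runx1* and −1.06 for *Runx2*. Of all tested genes, 12.9% were called in the negative direction and 20.7% in either. The call of *Osr1* was lost in several of the alternative fits given above. Groups of 2 libraries are too small for a search for single libraries that stand apart.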

How the results depend on the processing

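The number of factors called was 0, 7, 5, 7 and 5 for the knockdowns at day 3, the knockdowns at day 6, the days in *siNcor1*, the days in the libraries labelled *siOct4* and the interaction. Of all tested genes, 1.07%, 30.7%, 34.8%, 52.7% and 20.7% were called in the same order. In *siNcor1* the number of factors was 3 without the trend (28.9% of all tested genes), 3 with quantile normalization (32.7%) and 3 with read totals without *Gm26917* (33.8%). With 1 library left out in turn it ranged from 3 to 7 for the knockdowns at day 6 and from 1 to 6 for the days in *siNcor1*. The share of all tested genes called also moved between these fits. With a mean of at least 10 CPM, 5 of the factors were tested. The log2 fold change of *Meox2* at day 6 between the knockdowns was 0.013 after median centring of each library and between −0.10 and 0.050 with 1 library left out. Signs also turned with 1 library left out for *Foxc2* (between −0.0037 and 0.30) and *Meox2* (between −0.063 and 0.93) at day 3, and for *Meox2* in the interaction (between −0.95 and 0.037), none of them called. The cause was not tested.

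With the replicate number as a block, 0, 7, 6, 7 and 6 factors were called, and apart from *Meox2* in *siNcor1* and *Foxc2* in the interaction no call of a factor changed. The shares of all tested genes called were then 1.6%, 33.9%, 37.6%, 54.6% and 24.5%. Same-numbered libraries deviated together with correlations between −0.040 and 0.281, and they are taken to share only a number. Without *Gm26917* in the totals, the median of all tested genes from day 3 to day 6 in the libraries labelled *siOct4* moved from −0.079 to 0.055 and the share of higher genes among those called from 42.1% to 52.5%. Without normalization factors that share moved from 39.5% to 27.5% at day 6 between the knockdowns, while 7 factors were called under both. At day 3 it was 35.1%, and 55.1% with voom. Depth limits *Meox1*, with at most 4 reads in any library.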
